A study of Nothobranchius furzeri with 39 samples.

Results

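In the turquoise killifish *Nothobranchius furzeri*, 130 of 21050 genes tested (0.618%) passed a test for a different change in *atm* mutants in liver and in brain. They are all the genes for which the change between atm mutants (ATM) and wild type (WT) in liver, less the same change in brain, passed an adjusted p of 0.05 in edgeR's quasi-likelihood test, with sex fitted within each tissue. The 2-month table from which they were drawn lists 25099 genes. The fit used 3 ATM livers (2 females and 1 male), 4 WT livers (2 females and 2 males), 4 ATM brains (2 females and 2 males) and 4 WT brains (2 females and 2 males), all from fish of 2 months. Another 4 livers and 4 brains came from fish of the same age that lacked both atm and cgas, called dKO in the labels, and are used here only for comparison. The labels give neither the mutant allele nor the strain, and 1 ATM liver (male 3) was not analysed here. Because titles carry the same fish number for a brain and a liver, such a pair was read as 2 organs of 1 fish. Nothing in the labels says more about how the fish were bred or sampled, so p-values speak for these fish only. The edgeR test took the 15 libraries as separate units, without the pairing by fish. Its p-values measure the spread between these libraries, pooled over both tissues.

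The kinase ATM is activated by DNA double-strand breaks and phosphorylates checkpoint and repair proteins, among them p53. Its loss causes ataxia telangiectasia in humans, a disease of the cerebellum, the immune system and the germ line, and it is also known to act in metabolism and redox control. The liver of egg-laying fish differs strongly between the sexes, because in females oestrogen drives it to make yolk and egg-envelope proteins.

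The messenger of atm itself was lower in ATM brains, where all 4 libraries lay below all 4 WT libraries. The ATM brains held 12.2, 11.8, 11.6 and 12.6 counts per 1000000 counts (CPM, on scaled library sizes, to be compared within a tissue only), against 16.7, 19.7, 17.4 and 14.7 CPM in the WT brains. The mean log2 CPM fell by 0.50 in ATM brains (two-sided exact permutation p = 0.0286, n = 4 each, the smallest p that this design can give). In liver the groups overlapped, with 4.61, 4.01 and 3.58 CPM in ATM livers against 9.15, 7.20, 3.78 and 4.42 CPM in WT livers. The change in mean log2 CPM was −0.51 in liver (two-sided exact permutation p = 0.286, n = 3 and 4; the smallest possible p is 0.0286), where atm had between 39 and 195 counts per library. The change of atm did not pass the test for a difference between the tissues, at 0.05 on the log2 scale (SE 0.29, edgeR adjusted p = 0.970).

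Total counts were, in units of 1000000 (M), 32 to 36.35 M in ATM livers, 25 to 35.17 M in WT livers, 19.55 to 33.62 M in ATM brains and 18.97 to 39.28 M in WT brains. Among females, depth followed genotype in both tissues: ATM female brains had 21.03 and 19.55 M against 39.28 and 33.63 M in WT female brains, and ATM female livers had 36.35 and 34.42 M against 25 and 26.76 M in WT female livers. The labelled tissues carried their markers. Over 22 hepatocyte genes, the summed level was 351000 to 452000 CPM in ATM livers and 136000 to 384000 CPM in WT livers, against 1670 to 1920 CPM in ATM brains and 1280 to 1830 CPM in WT brains. The livers of WT females 3 and 4 stood apart from the other 5 livers. They held the 2 lowest hepatocyte sums, 136000 and 137000 CPM, where the lowest of the others was 351000 CPM. Over 19 genes of a glia list, which as drawn up shares *apoeb* with the hepatocyte list, they held 2620 and 2660 CPM. The ATM livers held 839 to 1590 CPM, and the WT male livers 697 and 469 CPM. Little of the 2 highest sums came from *mag*, *mbpa* and *fabp7a* of that list. WT female 3 had 0.291, 0.291 and 0.194 CPM of them in liver, and WT female 4 had 1.16, 4.21 and 0.421 CPM. Whether glia have a part in these sums was not tested. The 20 most abundant genes of these 2 livers took 54 and 59.75% of all counts, against 33.8 to 37.17% in the other 5.

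Of the 130 genes, 52 (0.247% of all genes tested) had a difference above 0, that is, a change in liver above the change in brain, and 78 (0.371%) a difference below 0. Over all genes tested, 53.9% of differences were above 0, with a median of 0.05 on the log2 scale. With scaling factors computed within each tissue, 156 genes passed, 43 above 0 and 113 below. At an unadjusted p under 0.05, 3902 genes passed. With the fish as a fixed block in edgeR, 5 genes passed, all of them below 0 and among the 130: *cabp1*, *gucy1a2*, *baiap2l2*, LOC107385029 and LOC107373797. The fit with this block has 4 residual degrees of freedom, against 9 without it. Calls also moved with single libraries. The count was 49 without the liver of WT female 4, 50 and 52 without the brains of WT females 3 and 4, 58, 59 and 61 without the brains of ATM male 3, ATM female 1 and ATM female 2, and 76 without the liver of ATM female 2. It was 979 and 1662 without the livers of WT males 2 and 1, and 2030 without the liver of ATM male 4.

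The differences were borne mostly by the liver. The change in liver was larger in size than the change in brain for 126 of the 130 genes, against 74.8% of all genes tested. Among the 130, the median size of the ATM minus WT change was 1.86 in liver and 0.19 in brain on the log2 scale, and over all genes tested it was 0.32 in liver and 0.12 in brain. Setting the 6 genes without a count in the livers of a genotype to the bound that a floor of 3 counts allows, the median for liver was 1.78. Taken within each tissue in the same fit, the ATM minus WT change passed in liver for 1116 genes (5.3%) and in brain for 2 (0.0095%), and of the 130 genes 128 passed in liver and 2 in brain. These parts come from the contrast that chose the genes, and they are a description. The joint fit shares its estimate of spread per gene between the tissues. In edgeR fits of each tissue alone, 8 of 15340 genes tested passed in liver and 4 of 19700 in brain. The spread was also unequal, with a median residual SD of log2 CPM of 0.27 in liver and 0.14 in brain over the 14080 genes with at least 10 counts on average in all 4 groups.

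**Figure D1:**
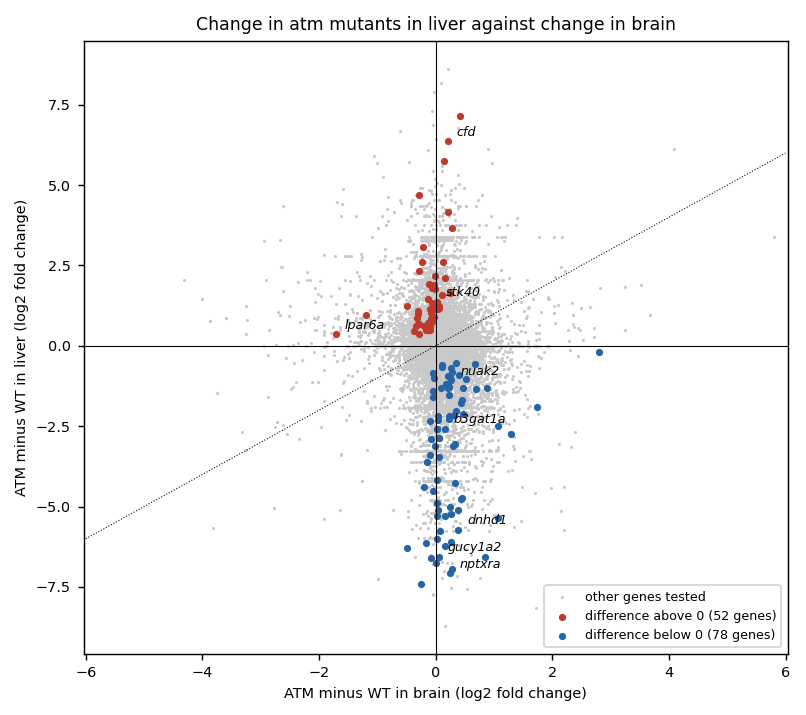
Change between ATM and WT in liver (vertical axis) against the same change in brain (horizontal axis), both as log2 fold changes from 1 fit, for all 21050 genes tested. Red points are the 52 genes with a difference above 0, blue points the 78 with a difference below 0, grey points the other genes, and the dotted line marks equal change; nearly all coloured points lie close to 0 on the brain axis, with *lpar6a* among the exceptions.

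The order of the liver libraries was of 2 overlapping kinds. In 102 of the 130, both WT female livers lay outside the range of the other 5 livers, against 31.1% of all genes tested. They lay above the others in 67 of the 78 genes with a difference below 0, against 11.1% of all genes tested, and below the others in 35 of the 52 with a difference above 0, against 20% of all genes tested. In 59 of the 130, all 3 ATM livers lay outside the range of the 4 WT livers, against 7.57% of all genes tested, above it for 37 genes with a positive difference and below it for 22 with a negative one. Both orders held in 33 genes and neither in 2. In brain, all 4 ATM libraries lay outside the WT range in 12 of the 130 (9.23%), against 4.5% of all genes tested. When both WT female livers were left out, no gene passed in edgeR (smallest adjusted p 0.0563, 2148 genes at an unadjusted p under 0.05). The sign of the difference was kept by 128 of the 130. This set reuses libraries that chose these genes, so a kept sign is no support for the calls. The part that sex, depth, the marker sums and the make-up of these 2 livers have in the counts was not tested.

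**Figure D2:**
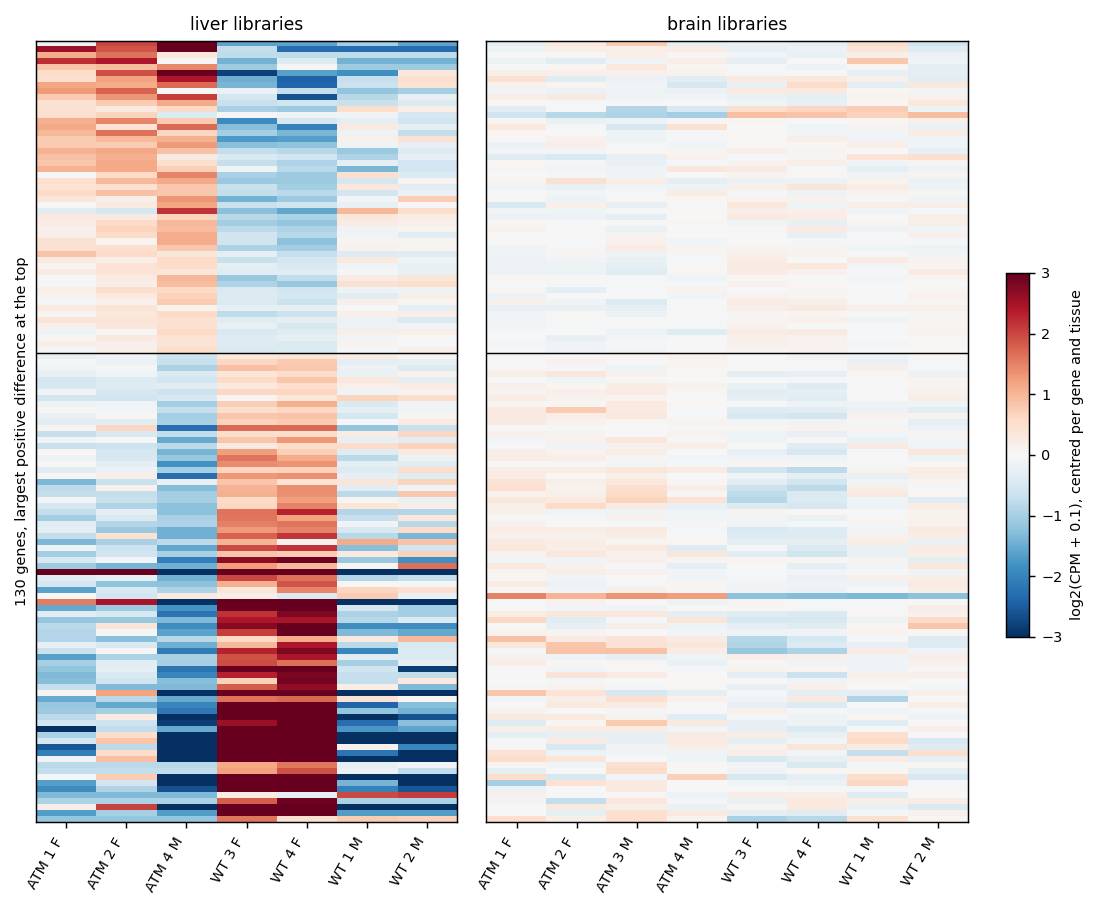
Levels of the 130 genes in 7 livers (left) and 8 brains (right), as log2(CPM + 0.1) centred on the mean of each gene within a tissue, with colours capped at −3 and 3. Genes run from the largest positive difference at the top to the largest negative one at the bottom, and the black line separates the 52 from the 78; below it WT females 3 and 4 are red in most genes in liver, while most brain cells are pale.

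The genes higher in ATM livers, with a smaller change in brain, included ones of signalling and protein turnover. The receptor gene *fzd8*, of the Frizzled family that binds Wnt ligands, had 307 and 304 CPM in ATM female livers and 429.9 CPM in the ATM male liver, against 74.3 and 77.1 CPM in WT female livers and 164 and 150.0 CPM in WT male livers. Every ATM liver was above every WT liver. In brain, its level was 6.27 ± 0.711 CPM in ATM and 6.57 ± 0.634 CPM in WT (SD, n = 4 each). The difference between tissues was 1.86 (SE 0.19, adjusted p = 0.000857), made of 1.79 in liver and −0.07 in brain.

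The ubiquitin-conjugating enzyme gene *ube2al* had 195 and 209.8 CPM in ATM female livers and 173 CPM in the ATM male liver, against 57.4 and 52.8 CPM in WT female livers and 44.0 and 71.6 CPM in WT male livers. The 2 sexes thus showed similar levels within each genotype. In brain the groups overlapped, with 22.7, 22.5, 24.9 and 25.5 CPM in ATM and 24.0, 20.1, 27.3 and 25.4 CPM in WT, and the difference was 1.78 (SE 0.22, adjusted p = 0.00262). The pseudokinase gene *stk40* had 84.4, 104 and 98.0 CPM in the ATM livers, against 37.4, 49.6, 33.8 and 32.0 CPM in the WT livers. Its groups did not overlap in liver, whereas in brain 30.4 ± 2.98 CPM in ATM and 29.8 ± 2.18 CPM in WT did (SD, n = 4 each). The difference for *stk40* was 1.35 (SE 0.17, adjusted p = 0.00284). Also without overlap in liver, *ankrd10*, an ankyrin-repeat gene, had 37.1, 45.6 and 29.7 CPM in ATM livers and 17.2, 14.0, 12.8 and 10.8 CPM in WT livers, with 32.5 ± 2.24 CPM in ATM brains and 35.7 ± 2.79 CPM in WT brains (difference 1.58, SE 0.22, adjusted p = 0.00655). These 3 genes and *lpar6a* kept their call in 29 of 32 other settings. The exceptions for *ube2al*, *stk40* and *ankrd10* were the fish block, the males alone, and the set without both WT female livers, where adjusted p was 0.227 for each of them.

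The genes *kmt5c* and *mcrs1* were also among them, and genes of chromatin proteins were not counted as a class. For *kmt5c*, a histone methyltransferase of heterochromatin, the ATM livers held 60.4, 80.9 and 119 CPM, against 50.5, 43.7, 36.5 and 30.3 CPM in the WT livers, while brains held 37.5 ± 1.38 CPM in ATM and 36.1 ± 3.89 CPM in WT. Its difference was 1.13 (SE 0.17, adjusted p = 0.0106). For *mcrs1*, a subunit of chromatin complexes in mammals, the ATM livers held 107, 88.5 and 75.3 CPM, against 45.5, 46.2, 48.4 and 36.5 CPM in the WT livers, and brains 16.4 ± 1.23 CPM in ATM and 17.3 ± 1.28 CPM in WT (difference 1.09, SE 0.18, adjusted p = 0.0194). Liver groups did not overlap for either gene. The corepressor gene *ncor1* (difference 1.18), the zinc-finger factor gene *sall1* (1.41), the Notch target *hes1* (1.37) and *setd3*, which encodes an actin methyltransferase in mammals (1.304), also passed with a positive difference, and with the block their adjusted p-values were 0.198, 0.186, 0.213 and 0.249. The call of *kmt5c* was lost without the brain of ATM female 2, ATM male 3 or WT female 3 (adjusted p 0.0509 to 0.0615), and that of *mcrs1* without the brain of ATM female 1, ATM female 2, ATM male 3, WT male 1, WT female 3 or WT female 4 (0.0697 to 0.0831).

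In 3 further genes the picture depended on sex or on low levels. The torsin gene *tor3a*, which encodes an ATPase of the endoplasmic reticulum, had 50.9 and 45.2 CPM in ATM female livers and 288 CPM in the ATM male liver, against 26.8 and 21.9 CPM in WT female livers and 128 and 92.7 CPM in WT male livers. Males were above females in both genotypes, and within each sex ATM was above WT, so that the groups overlapped only across the sexes. Brains held 26.3 ± 1.28 CPM in ATM and 28.3 ± 2.90 CPM in WT (SD, n = 4 each; difference 1.25, SE 0.19, adjusted p = 0.0125). The call of *tor3a* was lost without the brain of ATM female 1, ATM female 2, ATM male 3, WT female 3 or WT female 4 (adjusted p 0.0584 to 0.0800). The gene *eps8l3b*, of a family of actin-linked adaptors, had 17.5, 19.7 and 11.4 CPM in ATM livers against 4.93, 7.99, 6.78 and 6.21 CPM in WT livers, and 1.17 ± 0.241 CPM in ATM brains against 1.65 ± 0.316 CPM in WT brains. Its difference was 1.74 (SE 0.27, adjusted p = 0.0141), and it was lost without the liver of WT female 4 (adjusted p = 0.0546). The neuroligin gene *nlgn4x*, a synaptic adhesion gene, had 1.90, 1.46 and 3.05 CPM in ATM livers, against 1.45, 1.44, 0.872 and 0.527 CPM in WT livers, beside 48.7 ± 2.77 CPM in ATM brains and 47.6 ± 0.700 CPM in WT brains. The lowest ATM liver and the highest WT liver were nearly equal. Its difference of 1.11 (SE 0.18, adjusted p = 0.0192) was lost without any one of 7 brains, all but that of ATM male 3 (adjusted p 0.0568 to 0.0827).

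With the fish as a fixed block, none of these positive differences passed. The adjusted p-values were then 0.0557 for *fzd8*, 0.161 for *ube2al*, *stk40* and *tor3a*, 0.189 for *ankrd10*, 0.198 for *kmt5c* and *eps8l3b*, 0.229 for *nlgn4x* and 0.249 for *mcrs1*. For *fzd8*, a fit without a sex term gave an adjusted p of 0.140.

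**Figure D3:**
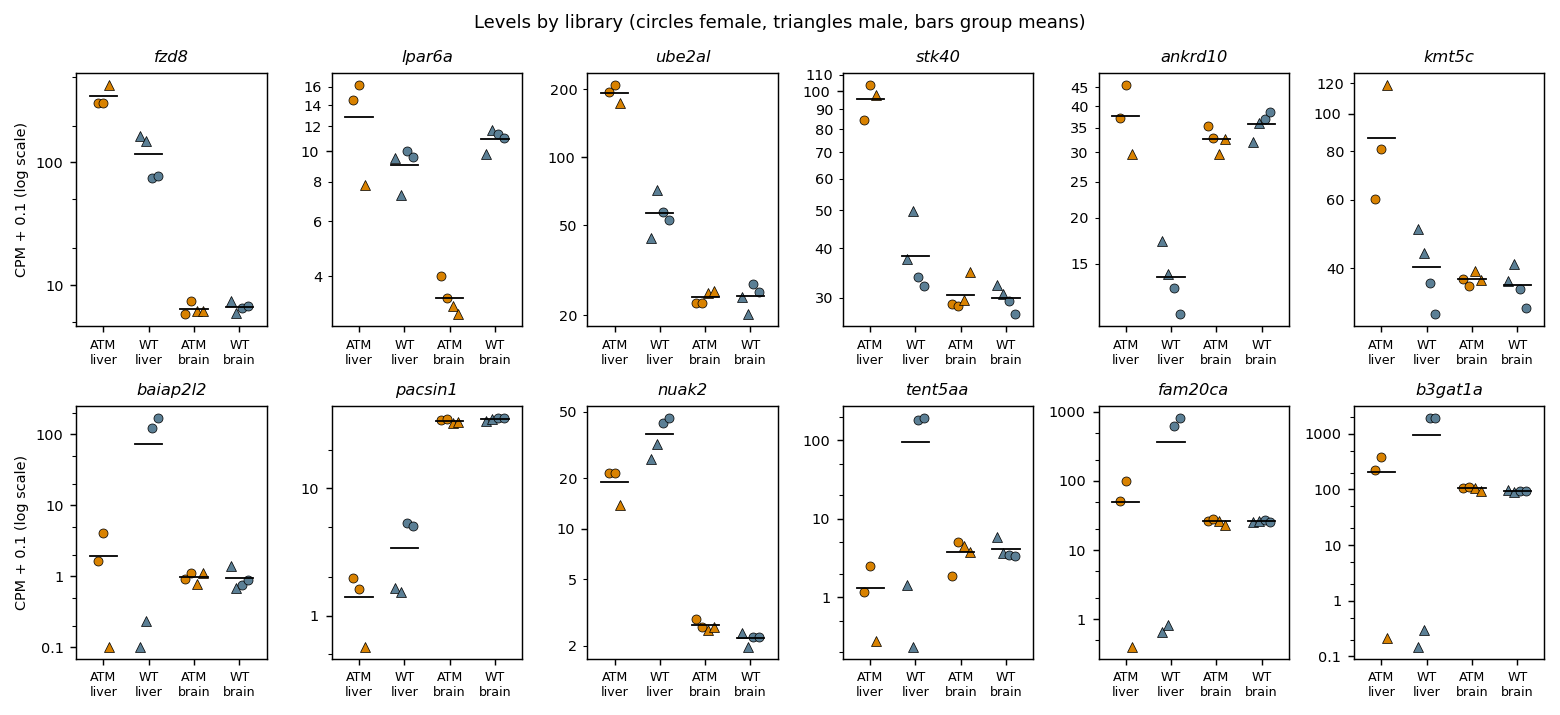
Levels in every library of 12 genes, the 6 with the smallest p in each direction among those with at least 10 counts on average in all 4 groups (positive differences above, negative ones below), as CPM + 0.1 on a log scale, in ATM liver, WT liver, ATM brain and WT brain. Circles are females, triangles males and bars group means. In *baiap2l2*, *tent5aa*, *fam20ca* and *b3gat1a* the 2 WT female livers are above 100 CPM while male livers of both genotypes are below 2 CPM.

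Among the genes with a negative difference, a set was abundant in WT female livers, lower in ATM female livers and nearly off in male livers of both genotypes. The glucuronyltransferase gene *b3gat1a* had 227 and 384 CPM in ATM female livers and 0.117 CPM in the ATM male liver, against 1960.5 and 1923 CPM in WT female livers and 0.0469 and 0.196 CPM in WT male livers. Brains held it at 104 ± 7.62 CPM in ATM and 93.9 ± 1.72 CPM in WT, in both sexes. The difference was −2.73 (SE 0.34, adjusted p = 0.00284). For *fam20ca*, a kinase gene of the secretory pathway, ATM female livers had 51.3 and 98.4 CPM and the ATM male liver 0.293 CPM, against 629 and 826 CPM in WT female livers and 0.563 and 0.720 CPM in WT male livers. Its brain levels of 25.9 ± 2.15 CPM in ATM and 26.1 ± 0.977 CPM in WT did not differ beyond their spread, and the tissue difference was −3.09 (SE 0.37, adjusted p = 0.00245).

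Similar liver levels by sex and genotype were seen for *tent5aa*, *baiap2l2*, *dnhd1* and *gpr160*, all at 6 CPM or less in every brain. The poly(A) polymerase gene *tent5aa* had 1.08 and 2.37 CPM in ATM female livers and 0.176 CPM in the ATM male liver, against 183 and 195 CPM in WT female livers and 1.31 and 0.131 CPM in WT male livers (difference −6.51, SE 0.74, adjusted p = 0.00199). The gene *baiap2l2*, whose product bends membranes of actin-filled protrusions in mammals, had 1.52 and 3.95 CPM in ATM female livers and 0 CPM in the ATM male liver, against 123 and 172 CPM in WT female livers and 0 and 0.131 CPM in WT male livers (difference −5.84, SE 0.53, adjusted p = 0.000381). In *dnhd1*, a dynein heavy chain relative, 8.89 and 17.9 CPM stood in ATM female livers and 0.293 CPM in the ATM male liver, against 595 and 1101 CPM in WT female livers and 0.516 and 0.196 CPM in WT male livers (difference −6.11, SE 0.76, adjusted p = 0.00288). The orphan receptor gene *gpr160* had 0.217 and 1.82 CPM in ATM female livers and 0 CPM in the ATM male liver, against 47.0 and 82.9 CPM in WT female livers and 0.188 and 0 CPM in WT male livers (difference −6.05, SE 0.82, adjusted p = 0.00569). Thus the fitted liver change of these genes rests on females. The gene with the highest level of this kind has no symbol: LOC107373797 had 13.9 and 50.9 CPM in ATM female livers, against 3401 and 4541 CPM in WT female livers, with under 0.2 CPM in every male liver and every brain.

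With few counts in the ATM and WT male livers but high in brain, *gucy1a2*, the gene of a soluble guanylate cyclase subunit, followed the same pattern. It had 0.163 and 0.425 CPM in ATM female livers and 0.0586 CPM in the ATM male liver, against 30.0 and 32.5 CPM in WT female livers and 0.141 and 0.0655 CPM in WT male livers, beside 64.2 ± 8.41 CPM in ATM brains and 61.7 ± 2.01 CPM in WT brains (difference −6.62, SE 0.41, adjusted p = 8.34e-06). With the fish as a block, the adjusted p was 0.0157 for *gucy1a2* and for *baiap2l2*, 0.0318 for LOC107373797, 0.0557 for *tent5aa*, and between 0.161 and 0.198 for *fam20ca*, *dnhd1*, *b3gat1a* and *gpr160*. Without both WT female livers, the differences were −0.06 for *b3gat1a*, −0.73 for *dnhd1*, −0.91 for *gucy1a2*, −1.08 for *fam20ca* and −2.02 for *tent5aa*, and, less precisely, −4.19 for *baiap2l2* (SE 3.51), −5.001 for *gpr160* (SE 3.97) and −5.32 for LOC107373797 (SE 3.86), and none passed. Of 6 genes tested from a list for yolk formation and oestrogen response, none passed, with 2 differences above 0 and 4 below. The oestrogen receptor gene *esr1* had a difference of −0.79 (adjusted p = 0.212). It had 815 and 1332 CPM in ATM female livers, 2027 and 2014 CPM in WT female livers, and 25.4 to 27.0 CPM in male livers. The 6 include *chga*, at 42.5 to 54.5 CPM in brains and 0 CPM in every liver but that of WT female 4 (0.105 CPM), which does not read out yolk formation in liver. In bulk tissue, fewer cells of a type and less RNA per cell cannot be told apart.

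Several genes well counted in brain had negative differences and were near the detection limit in all livers but those of the WT females. The calcium sensor gene *cabp1* had 0.108 and 0.122 CPM in ATM female livers and 0 CPM in the ATM male liver, that is 2, 2 and 0 counts, against 5.33 and 3.90 CPM in WT female livers and 0.0938 and 0.0655 CPM in WT male livers. Brain levels were 25.2 ± 1.22 CPM in ATM and 24.7 ± 2.15 CPM in WT. Its difference of −5.31 (SE 0.29) had the smallest adjusted p of all, 4.55e-06, and 0.00886 with the fish as a block. The pentraxin receptor gene *nptxra* had 1 count over the 3 ATM livers and 91 over the 4 WT livers, all of them in the WT females, a ratio of ATM to WT of 0.0119 (95% counting interval 0.000299 to 0.0682), while brains held 30.5 ± 6.91 CPM in ATM and 25.4 ± 3.77 CPM in WT (difference −7.32, SE 0.57, adjusted p = 0.000381, 0.154 with the block). The calcium buffer gene *pvalb* had 0.0542, 0.425 and 0 CPM in ATM livers, against 13.6 and 18.7 CPM in WT female livers and 0.891 and 0.131 CPM in WT male livers, beside 75.0 ± 13.9 CPM in ATM brains and 84.0 ± 17.5 CPM in WT brains (difference −5.96, SE 0.66, adjusted p = 0.00177, 0.0741 with the block).

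Milder and at measurable liver counts, *pacsin1*, an endocytosis gene of synapses, had 1.90 and 1.52 CPM in ATM female livers and 0.469 CPM in the ATM male liver, against 5.23 and 4.95 CPM in WT female livers and 1.55 and 1.44 CPM in WT male livers. The WT females were again the 2 highest livers. In brain it had 32.3 to 35.0 CPM in the 4 ATM libraries and 33.4 to 35.7 CPM in the 4 WT libraries, with overlap, and the difference was −1.54 (SE 0.14, adjusted p = 0.000381, 0.107 with the block). Counting intervals and floors here cover counting error only. Of 13 neuron markers tested, 1 passed, *elavl3*, with 0, 0.0608 and 0 CPM in ATM livers against 0.0469, 0.196, 0.291 and 1.69 CPM in WT livers (difference −4.92, SE 0.96, adjusted p = 0.0403, 0.280 with the block). That is 1 count over the ATM livers and 23 over the WT livers, most of them in WT female 4, which also had the highest level summed over the list. Over all genes tested 0.618% passed, and 1 call in so short a list is no result about neuron markers. Over the 13 markers, 12 differences were below 0 and 1 above, with a median of −1.84. Over all genes tested, 53.9% of differences were above 0, with a median of 0.05. The summed level of the 13 was 1.03, 3.28 and 0.821 CPM in the ATM livers and 2.58, 0.982, 1.26 and 12.3 CPM in the WT livers, against 3540 to 4030 CPM in ATM brains and 3600 to 3880 CPM in WT brains, and 2 of the 13 had no count in any ATM liver. The liver of WT female 3, with a marker sum of 1.26 CPM, had *cabp1* and *pvalb* at 5.33 and 13.6 CPM. The liver of WT female 4, with a sum of 12.3 CPM, had them at 3.90 and 18.7 CPM. The part that traces of neurons have in these differences was not tested.

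Among genes of kinases and trafficking, 3 fell in ATM livers, with lower values in ATM than in WT within each sex. The AMPK-related kinase gene *nuak2* had 21.3, 21.5 and 13.7 CPM in ATM livers, against 25.8, 32.2, 42.8 and 46.1 CPM in WT livers, so every ATM liver was below every WT liver. Brain ran the other way, with 2.79, 2.50, 2.39 and 2.49 CPM in ATM brains and 2.27, 1.85, 2.16 and 2.15 CPM in WT brains, and the groups did not overlap there either. The difference was −1.34 (SE 0.15, adjusted p = 0.00177), with −1.07 in liver and 0.27 in brain, of which the brain part did not pass on its own. The protein kinase A catalytic subunit gene *prkacb* had 1.03, 1.22 and 0.997 CPM in ATM livers, against 2.02, 2.68, 2.52 and 2.53 CPM in WT livers, also without overlap, and 9.51 ± 0.355 CPM in ATM brains against 8.40 ± 0.738 CPM in WT brains (difference −1.37, SE 0.21, adjusted p = 0.0114). The gene *rab11fip4*, of an effector of recycling endosomes, had 2.06, 2.19 and 0.704 CPM in ATM livers, against 1.83, 1.70, 3.97 and 5.48 CPM in WT livers, with overlap in liver, and 30.4 ± 3.91 CPM in ATM brains against 26.3 ± 1.93 CPM in WT brains (difference −1.40, SE 0.21, adjusted p = 0.0110). The block gave adjusted p-values of 0.161 for *nuak2*, 0.198 for *prkacb* and 0.161 for *rab11fip4*.

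Brain carried the larger part in 4 genes, and in 2 of these the change passed in brain and not in liver. The lysophosphatidic acid receptor gene *lpar6a* had 3.91, 3.31, 3.12 and 2.93 CPM in ATM brains, against 9.72, 11.6, 11.2 and 10.9 CPM in WT brains, a change of −1.71 (SE 0.15). The brain groups were far apart, while the livers overlapped, with 14.5, 16.2 and 7.68 CPM in ATM and 9.38, 7.14, 9.88 and 9.48 CPM in WT. Its tissue difference was 2.07 (SE 0.23, adjusted p = 0.00171, 0.0979 with the block, and 0.0953 without both WT female livers). The gene LOC107386741, which has no symbol, had 3.50, 2.50, 3.08 and 2.96 CPM in ATM brains, against 0.403, 0.443, 0.441 and 0.420 CPM in WT brains, and 0.325, 0.182 and 0.410 CPM in ATM livers against 0.610, 0.262, 0.388 and 0.211 CPM in WT livers. Its brain change of 2.81 (SE 0.26) gave a tissue difference of −2.99 (SE 0.49, adjusted p = 0.0185, 0.249 with the block). These 2 were also the genes in which neither order of the liver libraries held. In the tight-junction gene *cldn2* and the lipocalin gene *lcn2*, the brain part was larger but did not pass on its own: 0.68 in brain and −0.56 in liver for *cldn2*, −1.19 in brain and 0.96 in liver for *lcn2*. With the block, the adjusted p was 0.249 for *cldn2* and 0.198 for *lcn2*. The brain part of *lcn2* rests on few counts: 9, 11, 8 and 8 in ATM brains and 24, 10, 36 and 34 in WT brains. Its livers had 1850 to 12804 counts.

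The receptor *lpar6a* lies on the chromosome that carries atm, as do *gucy1a2*, *b3gat1a*, *ulk2*, *plch1*, *map6b* and LOC107380247 in the RefSeq gene table. That makes 7 of the 94 genes with a known chromosome (7.45%), against 641 of 15664 tested genes (4.09%).

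A few genes with positive differences were close to absent in liver. The complement factor D gene *cfd*, a serine protease of the alternative pathway, had 2.82, 1.70 and 4.05 CPM in ATM livers, against 0, 0, 0.194 and 0 CPM in WT livers. Pooled, that is 149 counts against 2, a ratio of 80.9 (95% counting interval 22.0 to 674), beside 17.5 ± 1.98 CPM in ATM brains and 15.2 ± 3.68 CPM in WT brains (difference 6.15, SE 0.71, adjusted p = 0.00199, 0.156 with the block). The microtubule gene *map6b* had 5, 7 and 2 counts in ATM livers and none in any WT liver. Its pooled level in ATM livers was 5.07-fold that of a floor of 3 counts over the 4 WT libraries. This ratio leaves out the counting error of the 14 ATM counts, so it is no lower bound. In brain *map6b* had 66.7 ± 4.36 CPM in ATM and 60.6 ± 7.27 CPM in WT (adjusted p = 0.0346), and its call was lost without the liver of ATM female 2, WT female 3 or WT female 4 or any one of 7 brains, all but that of WT male 2 (0.0573 to 0.143). The ankyrin-repeat gene *ankrd29* had 0.704, 1.03 and 0.235 CPM in ATM livers, against 0.0469, 0.0655, 0.194 and 0.105 CPM in WT livers, and 31.8 ± 1.17 CPM in ATM brains against 39.1 ± 5.04 CPM in WT brains (difference 2.63, SE 0.35, adjusted p = 0.00501). Its call was lost without the liver of ATM female 2 (0.0546) or WT female 4 (0.0793).

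The islet hormone gene *iapp* had 0.650, 1.15 and 2.81 CPM in ATM livers, against 0.235, 0.655, 0.0969 and 0 CPM in WT livers, with 1.24, 0.652, 0.753 and 0.668 CPM in ATM brains and 0.982, 0.664, 1.09 and 1.11 CPM in WT brains (difference 3.28, SE 0.63, adjusted p = 0.0391). In liver, the lowest ATM value lay just below the highest WT value. Its call was kept in only 3 of the 15 sets that left out 1 library, those without the liver of ATM male 4, WT male 1 or WT male 2, and was lost in the other 12 (adjusted p 0.0511 to 0.0981). Over 7 markers of the endocrine pancreas, the summed level was 0.433, 98.4 and 2.58 CPM in ATM livers and 0.328, 0.393, 0.0969 and 0.843 CPM in WT livers. The sum was high in 1 library, the liver of ATM female 2, while *iapp* was highest in the liver of ATM male 4, and the sum in the liver of ATM female 1 lay within the WT range. For the exocrine pancreas, 8 genes summed to 1400, 167 and 334 CPM in ATM livers and 62.2, 79.9, 197 and 166 CPM in WT livers. Of 6 endocrine and 8 exocrine genes tested, none passed. Differences were above 0 in all 6 endocrine genes (median 5.68) and in 7 of the 8 exocrine genes (median 2.09). Whether pieces of pancreas in the liver samples play a part was not tested. The block gave adjusted p-values of 0.176 for *ankrd29* and 0.280 for *map6b* and *iapp*.

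The remaining genes with a symbol also passed. Those above 0 were *gga3*, *ankrd13c*, *hus1*, *ptprt*, *ncor1*, *kbtbd4*, *ulk2*, *trim105*, *dpyd*, *atp6v0a2a*, *smad2*, *plch1*, *hes1*, *rabggta*, *ubtd1*, *fam83d*, *setd3*, *ppp1caa*, *sall1*, *arhgdig*, *chmp7*, *lcn2*, si:ch211-168d23.3, *hnrnph3* and *dhrs12*. Among them, *hus1* encodes a subunit of the checkpoint clamp loaded at damaged DNA. It had 18.4, 26.4 and 31.3 CPM in ATM livers, against 15.5, 17.5, 9.50 and 8.64 CPM in WT livers, so that every ATM liver was above every WT liver (difference 1.17, SE 0.20, adjusted p = 0.0205, 0.260 with the block). The autophagy kinase *ulk2*, the TGF-beta mediator *smad2* and the phosphatase subunit *ppp1caa* had differences of 1.42, 0.91 and 1.11, and adjusted p-values of 0.260, 0.260 and 0.270 with the block.

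Those below 0 were *nptxr*, *trpc7b*, *prickle1a*, *kcnj12a*, *stxbp4*, *sema3h*, *tnip1*, *slc45a4*, *chrna4b*, *cldn2*, *jam3b*, *psat1*, *cxxc5a*, *mtcl1*, *klf8*, *shisa2*, *tle3a*, *gcnt7*, *cdyl2*, *peak3*, *plpp5*, *cyp27a2*, *adamts3*, *sema4b*, *ppfia2*, *mafa*, *gja10*, *tcf7l2*, *map3k8*, *rgs9a*, *bbx*, *elavl3*, *pim3*, *spega*, *baiap2l2a*, *gldn*, c7h2orf88 and *ttll7*. The serine synthesis gene *psat1* had 3.52, 4.68 and 1.11 CPM in ATM livers, against 32.5 and 38.2 CPM in WT female livers and 2.205 and 1.31 CPM in WT male livers, beside a brain change of 0.02 (difference −2.60, SE 0.44, adjusted p = 0.0205, 0.198 with the block). Not every gene of this list had its highest livers in WT females. In *slc45a4*, a sugar transporter relative, the 2 highest livers were those of WT males. Its difference was −1.14 (SE 0.18, adjusted p = 0.0159, 0.161 with the block). Without both WT female livers, the difference of *slc45a4* was −1.30 (SE 0.239) and did not pass (adjusted p = 0.227). Another 39 of the 130 have no symbol. Close to the threshold, *dhrs12* (0.60), *ttll7* (−0.96) and LOC107374642 (2.82) were the last inside, and *fbrsl1* (1.199), *nxpe3* (1.47) and LOC107396253 (2.11) the first outside.

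Many of the 130 genes had few counts in some group, as had many of all genes tested. All 4 groups had at least 10 counts on average for 77 of the 130, against 14080 of all 21050 genes tested. Of these 77, 40 had a difference above 0 and 37 below. The other 53 had 12 above and 41 below 0, and 17 of the 130 had 3 counts or fewer in total over the livers of a genotype.

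The lists for pathways in which ATM is known to act are small beside a background of 0.618% of genes called, so that a count of 0 or 1 is no result about them. Of 34 genes for DNA damage kinases and checkpoints, a list without *hus1*, none passed, with a median difference of 0.10 against 0.05 over all genes, and *rpa1*, of the single-strand binding complex, had 1.02 (adjusted p = 0.126). Of 28 p53 target genes none passed (median 0.12), and the cell-cycle inhibitor *cdkn1a* had 1.11 (0.125). Of 25 genes of the interferon and cGAS-STING response none passed (median −0.42), and the RNA editing gene *adar* had −0.94 (0.0675). Of 37 genes for stress of the endoplasmic reticulum and amino acid supply, 1 passed, *psat1*, and the median was −0.18.

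In the metabolic and other lists that follow, no gene passed, while the medians differed. No gene passed among 38 for sterol and fatty acid synthesis (median 0.14; *insig2* 0.79, adjusted p = 0.0528), 28 for fasting and glucocorticoid response (0.44; *plin2* 1.52, 0.128), 24 for polyamines and methionine (0.43), 24 for redox defence (0.22; *gclm* 0.57, 0.0835) and 27 of the circadian clock (0.29; *nr1d1* 0.84, 0.0884). Heat shock and proteasome genes had 36 of 39 differences above 0 with a median of 0.23, and none passed. Yolk formation, with *chga* counted in, had a median of −0.62. Marker lists gave none past the threshold for hepatocytes (21 genes, median 0.66), glia (18, −1.18), intestine (8, 1.29), red blood cells (7, 0.12), immune cells (23, −1.23), endothelium and stellate cells (15, 0.03) and gonad (7, 0.12). Differences were above 0 in 17 of the 21 hepatocyte genes and below 0 in 18 of the 23 immune genes. The summed immune level was 110, 150 and 112 CPM in ATM livers and 517, 85.4, 118 and 104 CPM in WT livers. It was thus high in 1 library, the liver of WT male 1, and the ATM livers lay within the WT range. The part of cell make-up in these medians was not tested.

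In the dKO fish the same contrast was taken from a fit of all 3 genotypes, in which the dKO minus WT difference between tissues passed for 244 of 21597 genes (1.13%). These values share the WT libraries with the ATM contrast. Values for ATM in this paragraph are from the same 3-genotype fit. The tissue difference of *cabp1* was −5.33 (SE 0.58) in ATM and −5.28 (SE 0.55, adjusted p = 8.99e-05) in dKO, and that of *baiap2l2* was −5.73 (SE 1.11) in ATM and −5.48 (SE 1.13, adjusted p = 0.0272) in dKO. For *pacsin1* it was −1.74 (SE 0.34) in ATM and −1.90 (SE 0.32, adjusted p = 0.00819) in dKO, and for *lpar6a* 2.00 (SE 0.28) in ATM and 1.21 (SE 0.27, adjusted p = 0.0372) in dKO. These 4 genes passed in both contrasts. For *stk40* it was 1.28 (SE 0.21) in ATM and 0.64 (SE 0.20, adjusted p = 0.127) in dKO, and for *ube2al* 1.67 (SE 0.30) in ATM and 0.83 (SE 0.29, adjusted p = 0.161) in dKO. In this fit *fzd8* had 1.73 (SE 0.43, adjusted p = 0.0896) in ATM and 0.62 (SE 0.42, adjusted p = 0.499) in dKO, and *fam20ca* had −2.73 (SE 1.61, adjusted p = 0.504) in ATM and 0.16 (SE 1.97, adjusted p = 1.00) in dKO, so that neither passed. Whether ATM and dKO differ was not tested. The dKO livers (male 1, females 2 and 3, male 4) had 256, 78.1, 278 and 116 CPM of *fzd8*, 85.1, 104, 185 and 70.0 CPM of *ube2al*, and 0.398, 70.0, 11.2 and 27.5 CPM of *fam20ca*. The dKO and WT livers overlapped for *fzd8*, with 2 dKO livers inside the WT range and 2 above it. In dKO brains (male 1, females 2 and 3, male 4), *lpar6a* had 4.24, 4.93, 4.61 and 8.06 CPM.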

How the data were processed

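Polyadenylated RNA of brains and livers was sequenced as single 75-base reads, per the labels' protocols. The deposited table of 2-month samples holds raw counts per gene made by the authors; FastQC 0.11.8, Trim Galore 0.6.4, cutadapt 3.4, STAR 2.7.6a and edgeR 3.32.1 are named in the submitters' processing notes. The genome build is not given in the sources used here. Whether counting used strand is not stated, so overlapping genes cannot be told apart.

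The deposited counts of 15 libraries were fitted with edgeR 4.0.16 (R 4.3.3; TMM scaling, filterByExpr, robust quasi-likelihood, sex within tissue), and the ATM minus WT change in liver less that in brain was tested with Benjamini-Hochberg adjustment at 0.05. All fold changes are log2. Unless another tool is named, adjusted p-values are from this edgeR test. DESeq2 1.42.0 and limma 3.58.1 served as alternatives. The code was checked on simulated counts. Depth was 18.97 to 39.28 M counts per library, so genes with few liver counts have wide errors.

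Brain and liver of a fish share a number in the titles. Their deviations from group means correlated at 0.102 on average, against −0.0147 for brains and livers of other fish, and the value with the fish as a block stands beside the genes described with values; of the 130, 5 passed under it.

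Genes named with values were, per direction, the 10 with the smallest p among genes with at least 10 counts on average in all 4 groups, and 4 among the others; *hus1*, *psat1*, *elavl3*, *slc45a4*, the genes borne by brain and the 2 genes without symbol were chosen after their values were seen. Members and gene lists were chosen with earlier results of these data known. Symbols for 35 of 74 LOC identifiers among the 130 came from the RefSeq gene table (assembly NfurGRZ-RIMD1), and 39 genes have none. Alternatives tried were other scalings, filters, tools, sex terms, depth terms, blocks, subsets and leaving out each library.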

Additional observations from a re-analysis of the deposited data

Results flagged for a closer look

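In 6 of 84 groups of 4 libraries, 1 library stood far from the other 3, where chance gives about 1 in 20. These were, in CPM, *cfd* in the brain of ATM female 1 (14.6) and in the liver of WT female 3 (0.194), *stk40* in the brain of ATM male 4 (34.8), *gpr160* in the brain of ATM female 1 (0.457), *tent5aa* in the brain of WT male 1 (5.71) and *nlgn4x* in the brain of WT female 3 (48.6). The liver value of *cfd* is 2 counts, beside 0 in the other WT livers, where any count in a single library would be flagged.

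The test of the difference between liver and brain is also what chose the 28 genes named with values, so that their differences are listed here as a description. The log2 differences above 0 were 6.15 for *cfd*, 5.60 for *map6b*, 3.28 for *iapp*, 2.63 for *ankrd29*, 2.07 for *lpar6a*, 1.86 for *fzd8*, 1.78 for *ube2al*, 1.74 for *eps8l3b*, 1.58 for *ankrd10*, 1.35 for *stk40*, 1.25 for *tor3a*, 1.13 for *kmt5c*, 1.11 for *nlgn4x* and 1.09 for *mcrs1*. Those below 0 were −7.32 for *nptxra*, −6.62 for *gucy1a2*, −6.51 for *tent5aa*, −6.11 for *dnhd1*, −6.05 for *gpr160*, −5.96 for *pvalb*, −5.84 for *baiap2l2*, −5.31 for *cabp1*, −3.09 for *fam20ca*, −2.73 for *b3gat1a*, −1.54 for *pacsin1*, −1.40 for *rab11fip4*, −1.37 for *prkacb* and −1.34 for *nuak2*.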

How the results depend on the processing

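Against 130 genes past the threshold, the fish as a fixed replicate block left 5 and as a random replicate block (limma voom) gave 205, 98 of them among the 130. DESeq2 gave 1231, 129 of them among the 130. Without a sex term 10 genes passed, with a sex term shared by the tissues 5, with all 3 genotypes in the fit 52, with females alone 3716 and with separate fits per tissue 19. Males alone leave 1 ATM liver, so no count is given for them. All 15 libraries with added terms for higher or lower depth within each tissue gave 605. The livers of higher depth were those of ATM fish and of WT male 1, so in liver the depth term nearly follows genotype. Without both WT female livers 0 passed in edgeR (2148 at an unadjusted p under 0.05). This set, the depth terms and the separate fits were chosen after seeing the data. Leaving out each library in turn gave 49 to 2030 genes. The other settings (scalings, filters, robust or not, voom with a weight per tissue) gave 122 to 156. No gene named with values reversed its direction in any setting that could test it. These settings reuse libraries that chose the genes, so a kept direction is no separate support. The causes of these shifts were not tested. Depth limits the 53 genes with fewer than 10 counts on average in some group.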
